A study of Homo sapiens with 4 samples.

Results

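The BCL2 family genes examined were 10 genes whose proteins decide whether the mitochondrial outer membrane is opened during apoptosis. They were taken by their symbol in the platform annotation, with every probe of each gene, and comprised 4 survival members (BCL2, BCL2L1, BCL2L2 and MCL1), 1 effector member (BAK1) and 5 BH3-only members (BID, BIK, BAD, HRK and BCL2L11). They had 21 of the 47323 probes on the array, and 9 of them were among the 9435 genes that could be tested. Expression was measured in HepG2 cells, a human liver cancer line, on 4 Illumina HumanHT-12 v4 BeadChips. The 2 siCTRL arrays were of cells given a scrambled control siRNA and the 2 siPATZ1 arrays were of cells given an siRNA against PATZ1, a zinc finger transcription factor. Each transfection used 60 pmol of siRNA, and RNA was taken after 48 h. The labels name replicates but not whether they came from separate cultures, so each p-value rests on a spread between arrays that may be no more than technical, and 2 arrays per group limit the precision.

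Survival members hold the effector proteins BAK and BAX in check at mitochondria. BH3-only proteins carry only the short BH3 helix, with which they occupy the groove of survival members, and some of them also activate the effectors directly. Active effectors assemble into pores, cytochrome c leaves the mitochondria, and caspases are switched on. Mouse hepatocytes depend on BCL-XL and MCL1, the products of BCL2L1 and MCL1, for their survival.

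On the arrays, between 14222 and 15980 probes were detected, which here means a detection p-value under 0.01, a rank among the negative control beads of that array. Mean signals were 502.9 and 492.2 on siCTRL arrays and 522.9 and 554.7 on siPATZ1 arrays. The 3 probes of PATZ1 were detected on no array, so the arrays do not check the knockdown. Of 18 hepatocyte genes with a probe, only ALB, CPS1 and FOXA2 were detected on all 4 arrays, and 15 were detected on none, AFP among them. The detected ALB probe had a signal of only 202 and 157 on the siCTRL arrays and of 165 and 194 on the siPATZ1 arrays. So few detected hepatocyte genes do not bear out the label of a liver line, and the identity of the cells was not tested. Of 5 epithelial genes the keratins KRT8, KRT18 and KRT19 were detected on all arrays, and EPCAM and CDH1 on none. No endothelial gene of 5 was detected. Of 6 leukocyte genes with a probe, CD68 and HLA-DRA were detected on all arrays, LYZ on the siPATZ1 arrays only, and PTPRC, CD3E and CD14 on none, and the 3 that were tested did not pass. Of 8 fibroblast and stellate cell genes, 4 were tested and ACTA2, smooth muscle actin, rose (log2 fold change 0.82, adjusted p = 0.0291 in limma). COL1A1, COL3A1 and VIM did not pass, with log2 fold changes of -0.51, 0.46 and 0.29 (adjusted p = 0.0741, 0.074 and 0.207 in limma). The summed signal of that list before normalization, most of it VIM, was 6432 and 7427 on siCTRL arrays and 9525 and 9417 on siPATZ1 arrays. COL1A2, DCN and PDGFRB of the same list were detected on no array, and the part of such cells in the values of the members was not tested.

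The question was how each member differed between siPATZ1 and siCTRL cells, and whether survival members differed otherwise than BH3-only members. Differences are given as the log2 fold change of normalized signal, siPATZ1 minus siCTRL, from limma's moderated test across all genes, and a gene passed the test at a Benjamini-Hochberg adjusted p under 0.05. HRK, which encodes a BH3-only death protein, rose. BCL2L11, another BH3-only gene, passed the test too, but it was kept only through the siPATZ1 arrays, where it was high, so its call could hardly go the other way and only a lower bound of its change was measured. No member fell. The other 7 tested members did not pass the test, among them all 4 survival members. At an unadjusted p under 0.05 in limma, 4 members stood out, HRK and BCL2L11 above and MCL1 and BAK1 below, and with the methods' t-test, unadjusted, 2 did (HRK above and MCL1 below). At the adjusted p in limma, 7.76% of all genes tested rose and 6.94% fell, 14.7% in either direction. That stands against 2 of 9 tested members, or 1 of 8 without BCL2L11. A difference of at least 1.4-fold, the threshold of the study's methods, was reached by the measured values of 3 members (HRK, BCL2L11 and, lower, BAK1) and by 16.1% of all genes. The lower bound of BCL2L11, 1.31-fold, does not reach it. The siPATZ1 arrays did not overlap the siCTRL arrays in 4 members (HRK and BCL2L11 above, MCL1 and BAK1 below), but the same held for 60.1% of all genes. The median log2 fold change of the 9 tested members was 0.14, and that of all genes was -8e-04.

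Detection set what could be compared. Of the 21 probes, 10 were detected on all 4 arrays, 5 on some and 6 on none. For testing, a probe had to be detected on both siCTRL or both siPATZ1 arrays, which 14 probes were, and the kept probe of highest mean level stood for its gene. BIK was the only member with no kept probe. BCL2, BCL2L1, MCL1, BID, BAD and BCL2L11 had more than 1 probe, and in the plot of all member probes most of the dim ones lay at or below the lowest detected signal.

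**Figure D1:**
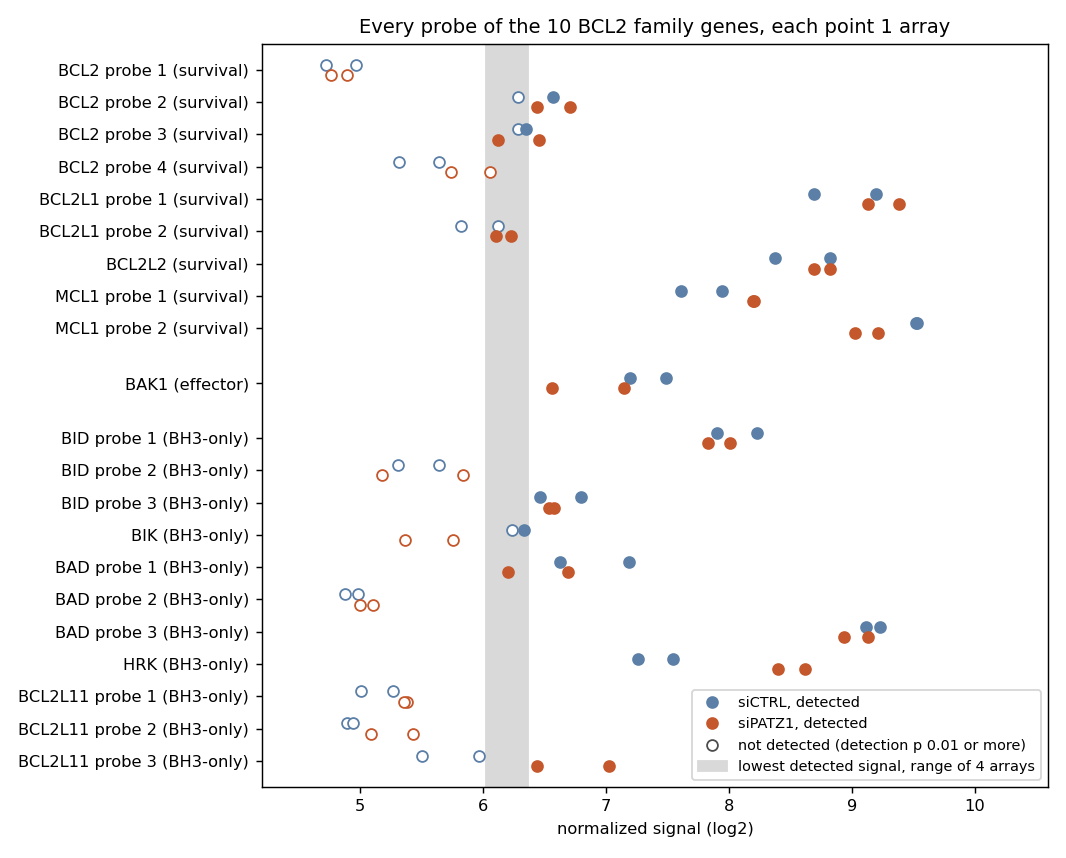
Normalized signal (log2) of the 21 probes of the 10 genes on the 2 siCTRL (blue) and 2 siPATZ1 (orange) arrays, each point 1 array, with open points where the probe was not detected and a grey band for the range of the lowest detected signal over the 4 arrays. HRK lies at 7.26 and 7.55 on the siCTRL arrays and at 8.40 and 8.62 on the siPATZ1 arrays, and the MCL1 probes lie apart in opposite directions.

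HRK encodes Harakiri, a BH3-only protein that binds BCL2 and BCL-XL and is best known from neurons deprived of growth factor. Its 1 probe had a signal of 242 and 208 on the siCTRL arrays and of 422 and 494 on the siPATZ1 arrays, and it was detected on every array. Both siPATZ1 arrays lay above both siCTRL arrays. After normalization the level was 7.40 ± 0.21 in siCTRL and 8.51 ± 0.16 in siPATZ1 cells (log2, SD, n = 2 arrays per group). The difference was 1.10 on the log2 scale (SE 0.15, 95% interval 0.76 to 1.45), or 2.15-fold, with an adjusted p of 0.006 in limma. HRK passed in 16 of 18 processing alternatives, among them the methods' t-test, unadjusted, and differences over all of them were 0.87 to 1.25. Without siPATZ1 2 the difference was 0.99 and the adjusted p in limma was 0.052, just above the threshold, and over all alternatives it ran from 5.57e-04 to 0.213. In RNA of whole cultures, more RNA per cell and more cells that make it cannot be told apart.

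BCL2L11 encodes BIM, a BH3-only protein that binds every survival member and also activates the effectors. Its probe 3 (ILMN_2359627) had a signal of 125 and 107 on the siCTRL arrays, where it was not detected, and of 156 and 210 on the siPATZ1 arrays, where it was. Both siPATZ1 arrays lay above both siCTRL arrays. The normalized level was 5.74 ± 0.33 in siCTRL and 6.74 ± 0.41 in siPATZ1 cells (log2, SD, n = 2 arrays per group), a difference of 1.00 (SE 0.22, 95% interval 0.48 to 1.52) with an adjusted p of 0.0268 in limma. Because the siCTRL level is only a bound, set at the lowest detected signal of each array, the change is given as at least 1.31-fold. The probe passed the filter only through the group where it was high. Probe 1 had a signal of 97.7 and 86.4 on the siCTRL arrays and of 105 and 110 on the siPATZ1 arrays, and probe 2 had 79.8 and 83.4 against 92.0 and 113. Probe 1 is annotated to the same transcript as probe 3 and probe 2 to another. Both lay higher in siPATZ1 cells, by 0.23 and 0.34 on the log2 scale, but were detected on no array and were not tested. The call of probe 3 was lost without siCTRL 2 (difference 0.77, adjusted p = 0.0517 in limma), without siPATZ1 2 (0.70, adjusted p = 0.151), with no detection filter (adjusted p = 0.112) and with the methods' t-test. The difference was 0.55 with no background correction and 0.53 with the deposited scaled intensities, and over all alternatives the adjusted p ran from 0.0142 to 0.341.

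**Figure D2:**
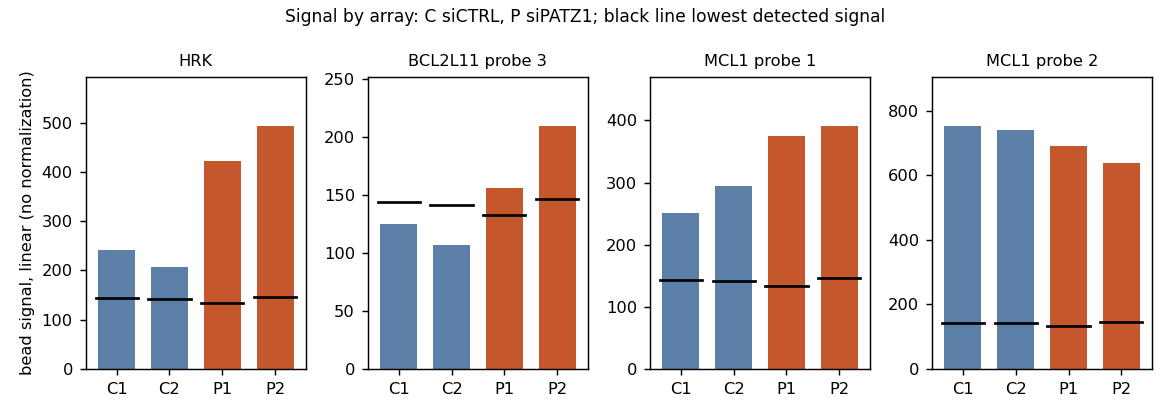
Bead signal on a linear scale, before background correction and normalization, of HRK, BCL2L11 probe 3 and the 2 MCL1 probes on each array (C1 and C2 siCTRL, P1 and P2 siPATZ1), with a black line at the lowest detected signal of that array. HRK rises from 242 and 208 to 422 and 494 and is above the line on every array, whereas BCL2L11 probe 3 is above it only on the siPATZ1 arrays.

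The start regions of the 2 genes that passed are shown because the study tested a G-rich sequence as a candidate binding site of PATZ1. A shortened form of it chosen here, GGGGAGG, which reads CCTCCCC on the opposite strand, was searched for on both strands in the RefSeq promoters of GRCh38.p14, which run from 250 bases before to 50 bases after each start site. It occurred in 24.4% of the 35116 promoters. Of the 10 members, 7 had promoters in the table, 13 in all, and 4 of these 13 promoters held it (1 of HRK, 1 of BCL2 and 2 of BID). The 2 BID promoters overlap and share matches, so the same bases are counted more than once. In HRK (chr12:116881392-116881691, minus strand) it occurred 2 times, 1 on each strand, and is in capitals in the first sequence, but 0 of these matches went on to the study's full sequence. In BCL2L11 (chr2:111120664-111120963, plus strand) it did not occur in this window. The GC content was 66.3% for HRK and 74.7% for BCL2L11, against a median of 58.7% over all promoters. A match is a description of letters and not a binding site.
HRK: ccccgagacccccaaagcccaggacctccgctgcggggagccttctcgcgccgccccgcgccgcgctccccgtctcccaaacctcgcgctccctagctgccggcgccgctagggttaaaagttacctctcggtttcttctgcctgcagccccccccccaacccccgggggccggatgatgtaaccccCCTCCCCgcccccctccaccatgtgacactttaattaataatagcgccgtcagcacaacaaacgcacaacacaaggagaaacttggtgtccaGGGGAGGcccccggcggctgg
BCL2L11: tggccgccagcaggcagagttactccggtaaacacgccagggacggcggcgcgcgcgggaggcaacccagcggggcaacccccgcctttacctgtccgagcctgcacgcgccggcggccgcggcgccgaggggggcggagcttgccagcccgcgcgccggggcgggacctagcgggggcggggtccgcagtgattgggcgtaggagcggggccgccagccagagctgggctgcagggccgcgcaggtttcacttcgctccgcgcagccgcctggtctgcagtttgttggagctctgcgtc

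The other BH3-only members did not pass the test or were not tested. BID, which an initiator caspase cleaves and which links death receptors to mitochondria, had a signal of 348 and 287 on the siCTRL arrays and of 305 and 348 on the siPATZ1 arrays for its brightest probe. The groups overlapped, and the difference was -0.15 (SE 0.15, 95% interval -0.50 to 0.20, adjusted p = 0.552 in limma). Another detected BID probe had 149 and 170 against 162 and 173 and a difference of -0.07, and the remaining probe was detected on no array. BAD, which growth factor kinases keep away from mitochondria by phosphorylation, had 629 and 573 on siCTRL arrays and 657 and 604 on siPATZ1 arrays. The groups overlapped in signal and after normalization, where the difference was -0.13 (SE 0.13, 95% interval -0.44 to 0.17, adjusted p = 0.529 in limma). A dimmer BAD probe had 203 and 158 against 143 and 182, with a difference of -0.46 that did not pass either (adjusted p = 0.229 over kept probes in limma).

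BIK, a BH3-only protein of the endoplasmic reticulum, had a signal of 137 and 142 on the siCTRL arrays and of 104 and 127 on the siPATZ1 arrays. It was detected on siCTRL 2 alone (detection p-value 0.00909), so it was neither kept nor tested. The normalized values were 6.23 and 6.33 in siCTRL and 5.37 and 5.76 in siPATZ1 cells, and the groups did not overlap. The measured difference was -0.72 on the log2 scale, and no fold is given because BIK was detected on neither siPATZ1 array and on only 1 siCTRL array. BIK was tested and called lower only where the detection threshold was 0.05 or siCTRL 1 was left out. In both settings BIK was kept only through siCTRL arrays, where it was high, so its call could hardly go the other way.

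MCL1, a survival member, had 2 probes with differences of opposite sign. It encodes a short-lived protein that binds BAK and BIM. Its brighter probe (ILMN_1803988) had a signal of 754 and 741 on the siCTRL arrays and of 690 and 637 on the siPATZ1 arrays, and its dimmer probe (ILMN_1756806) had 250 and 294 against 375 and 391. Both are annotated to the same transcript and were detected on all 4 arrays. The groups overlapped in neither probe, with siPATZ1 below siCTRL in the brighter and above it in the dimmer. The brighter probe, which represents the gene, differed by -0.41 (SE 0.13, 95% interval -0.70 to -0.11) with an adjusted p of 0.0706 in limma. The dimmer probe differed by 0.42 (SE 0.15, 95% interval 0.07 to 0.77), with an adjusted p of 0.108 in the limma fit over all 15090 kept probes, 12.4% of which passed. Neither passed the test, and no direction is given for the gene. The mean of both probes differed by 0.01 (adjusted p = 0.975 in limma). In the 17 alternatives that keep it, the brighter probe passed as lower in 4, among them the methods' t-test, unadjusted. With all 4 arrays used, its adjusted p ran from 0.0375 in limma with no background correction to 0.252 with the methods' t-test after Benjamini-Hochberg. Opposite signs between kept probes, however small the differences, occurred in 783 of 2141 genes with several kept probes (36.6%). Opposite differences past 1.4-fold occurred in 25 of the 2141, a size that neither MCL1 probe reached.

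**Figure D3:**
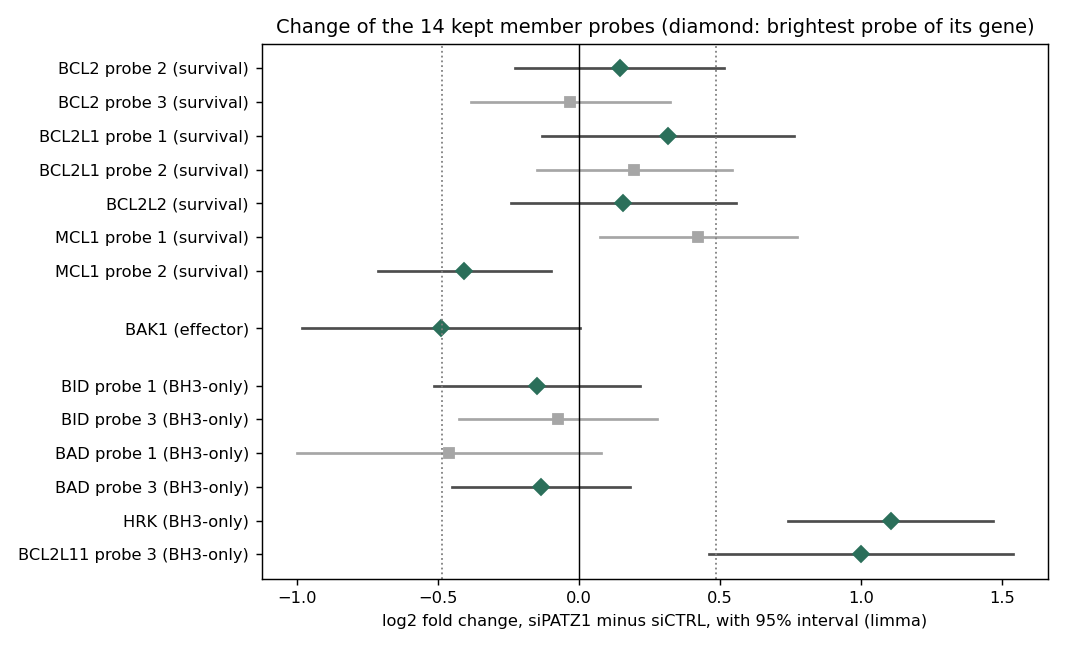
Log2 fold change, siPATZ1 minus siCTRL, of the 14 kept member probes with 95% intervals from the limma fit over all kept probes. Diamonds mark the brightest probe of a gene, squares its other kept probes, and dotted lines 1.4-fold. HRK at 1.10 and BCL2L11 probe 3 at a measured 1.00 lie past that line, and the MCL1 probes lie at 0.42 and -0.41. The lower bound of BCL2L11, 1.31-fold, does not lie past it.

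BCL2L1, which encodes BCL-XL, had a signal of 618 and 448 on the siCTRL arrays and of 655 and 799 on the siPATZ1 arrays. The signals did not overlap but the normalized values did. The difference was 0.31 (SE 0.19, 95% interval -0.12 to 0.75, adjusted p = 0.293 in limma). Its dimmer probe was detected on the siPATZ1 arrays only, at 137 and 150 against 119 and 131, with a difference of 0.20 (adjusted p = 0.418 over kept probes in limma). The dimmer probe was kept only through those arrays. With its siCTRL level at the lowest detected signal the difference was -0.18, so no direction is given for it. BCL2L2, which encodes BCL-w, had 377 and 483 on siCTRL arrays and 501 and 563 on siPATZ1 arrays. Its normalized values overlapped as well, with a difference of 0.16 (SE 0.17, 95% interval -0.23 to 0.54, adjusted p = 0.563 in limma).

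BCL2, the founding survival gene, was close to the detection limit. Its brightest probe had a signal of 156 and 139 on the siCTRL arrays and of 174 and 163 on the siPATZ1 arrays, and was detected on 3 of the 4 arrays. After normalization the groups overlapped, and the difference was 0.14 (SE 0.15, 95% interval -0.21 to 0.50, adjusted p = 0.566 in limma). Another kept probe had 139 and 143 against 138 and 164, with a difference of -0.03, and the remaining 2 probes, annotated to another transcript of BCL2, were detected on no array. The intervals of BCL2L1, BCL2L2 and BCL2 reach past 1.4-fold, so a change of that size is not excluded by these arrays.

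BAK1 encodes BAK, the effector that sits in the mitochondrial outer membrane. Its probe had a signal of 235 and 202 on the siCTRL arrays and of 164 and 222 on the siPATZ1 arrays, and it was detected on all of them. The signals overlapped, while the normalized values of 7.49 and 7.20 in siCTRL and 6.56 and 7.15 in siPATZ1 cells did not. The difference was -0.49 (SE 0.20, 95% interval -0.96 to -0.01), with an unadjusted p of 0.045 and an adjusted p of 0.151 in limma, which did not pass the test. It passed in 0 of 18 alternatives, and the difference ranged from -0.78 without siPATZ1 2 to -0.19 without siPATZ1 1.

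Set side by side, the 4 survival members had a median log2 fold change of 0.15 (range -0.41 to 0.31), and 3 were above 0 and 1 below. The 4 tested BH3-only members of 5 had a median of 0.43 (range -0.15 to 1.10), with 2 above 0 and 2 below. With BCL2L11 at its bound the BH3-only median was 0.13, and without that gene it was -0.13. The medians thus rest on HRK and BCL2L11, and on the MCL1 probe chosen. On the single arrays, the mean deviation of the BH3-only members from the siCTRL mean was 0.15 and -0.15 on siCTRL arrays and 0.36 and 0.55 on siPATZ1 arrays (log2). With BCL2L11 at its bound the BH3-only values on the siPATZ1 arrays were 0.20 and 0.40, and without BCL2L11 they were 0.24 and 0.31. The values without BCL2L11 rest on HRK alone, because BID and BAD lay below their siCTRL means on both siPATZ1 arrays. The survival members had 0.04 and -0.04 on siCTRL arrays and 0.06 and 0.04 on siPATZ1 arrays. No test was made of these class values, because the classes are small and were chosen with earlier results known.

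**Figure D4:**
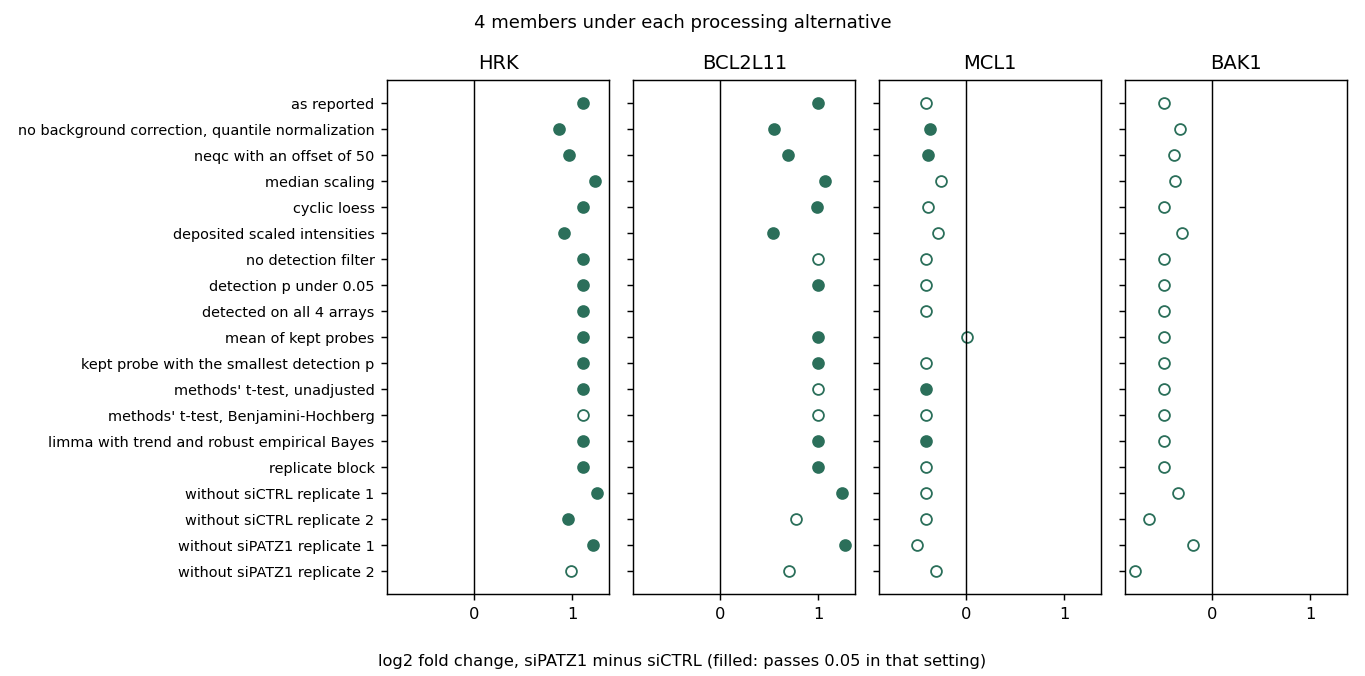
Log2 fold change, siPATZ1 minus siCTRL, of HRK, BCL2L11, MCL1 and BAK1 as reported and under each processing alternative, with filled points where the gene passes the threshold of that setting. HRK stays between 0.87 and 1.25 and is filled in 16 of 18 alternatives, and BAK1 in 0 of 18.

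Of 13 further BCL2 family genes, 8 were tested, of which 2 rose, 2 fell and 4 did not pass the test, with a median of -0.22. Of all genes, 7.76% rose and 6.94% fell. BAX, the second pore-forming effector beside BAK, had a signal of 613 and 778 on the siCTRL arrays and of 1269 and 1481 on the siPATZ1 arrays with its brightest probe, a difference of 0.85 (SE 0.17, adjusted p = 0.0171 in limma). Another BAX probe detected on all arrays had 270 and 220 against 229 and 257 and differed by -0.21 (adjusted p = 0.432 over kept probes in limma). The platform annotates it to another BAX transcript. The remaining BAX probe is annotated to the same transcript as the brightest but differed by -0.45, with 134 and 109 against 104 and 115. It was detected on no array and was not tested, so the rise is that of 1 probe. With the mean of both kept probes BAX had 0.32 and did not pass (adjusted p = 0.111 in limma, over a range of 0.00147 to 0.274 in all alternatives). BCL2L13, a mitochondrial member of the BCL2 family, rose by 0.49 (adjusted p = 0.0332 in limma). BNIP3 and BNIP3L, mitochondrial BH3 proteins known for mitophagy, fell by 0.51 and 0.59 on the log2 scale (adjusted p = 0.0444 and 0.0197 in limma), though a dimmer BNIP3L probe differed by only -0.09. The BH3-only genes BBC3 (PUMA), PMAIP1 (NOXA) and BMF had differences of -0.13, -0.32 and -0.32 and did not pass, with adjusted p of 0.588, 0.176 and 0.135 in limma.

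Of 17 genes that act downstream of the mitochondria, 13 were tested, 1 rose and 1 fell (15.4%, against 14.7% of all genes), with a median of -0.12. BIRC5 (survivin), an inhibitor of apoptosis family member that also serves in mitosis, rose by 0.53 (adjusted p = 0.03 in limma), and its other kept probe differed by 0.57. CYCS, which encodes cytochrome c, fell by 0.53 on the log2 scale (adjusted p = 0.0395 in limma). Of 12 death receptor pathway genes 6 were tested, and TNFRSF10B, a receptor of the death ligand TRAIL, fell by 0.46 on the log2 scale (adjusted p = 0.0446 in limma), while its other kept probe differed by -0.14. The other 5 did not pass, the share was 16.7%, and the median was -0.06.

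Among 29 genes that act upstream of the family, 25 were tested, of which 3 rose, 1 fell and 21 did not pass, with a median of 0.09. That is 16% of the tested genes, against 14.7% of all genes. GSK3B, a kinase that marks MCL1 for destruction, had a signal of 484 and 416 on the siCTRL arrays and of 966 and 1098 on the siPATZ1 arrays and rose by 1.12 (SE 0.14, adjusted p = 0.00411 in limma). The kept probe of MAPK8, the gene of the stress kinase JNK1, had 249 and 253 against 159 and 156 and fell by 1.23 on the log2 scale (SE 0.13, adjusted p = 0.00268 in limma). The platform annotates this probe to a cDNA clone. Its probe for a RefSeq transcript of MAPK8 was detected on no array and differed by 0.22, so the fall is that of 1 probe. JUN, a transcription factor that JNK phosphorylates, rose by 0.48 (adjusted p = 0.0378 in limma), as did BECN1, an autophagy protein that binds BCL2, by 0.74 (adjusted p = 0.0314 in limma). Each of the 11 genes that passed in these lists kept the sign of its difference when any 1 array was left out. GSK3B then differed by 1.01 to 1.24 and MAPK8 by -1.295 to -1.14. Without 1 or the other siPATZ1 array, all but GSK3B and MAPK8 lost the call, and some also lost it without a siCTRL array. Leaving out an array leaves 1 array in its group, and far fewer of all genes passed without a siPATZ1 array. A lost call is therefore not particular to these genes.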

How the data were processed

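RNA of 2 siCTRL and 2 siPATZ1 samples of cells labelled HepG2 was hybridised to 1 array each. The authors deposited probe intensity on a linear scale for 47323 probes, with no background subtraction or normalization, and beside it a detection p-value against the negative controls of the array. A second deposited table holds intensity of 47321 probes scaled to the same array mean (factors 1.03, 1.05, 0.991 and 0.934). The submitters' processing notes name GenomeStudio. The background treatment of the study was not given in the sources used here. All sample columns were used.

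R 4.3.3 and limma 3.58.1 were used. The function neqc corrected the unscaled table (normexp from the detection p-values, an offset of 16), quantile normalized it and took log2. Probe names came from the platform annotation, updated through RefSeq's gene table, and 30112 probes had 1 gene. Probes were kept (15090) where both siCTRL or both siPATZ1 arrays had a detection p-value under 0.01. Differences were fitted with lmFit and eBayes over 9435 genes, or over all kept probes, with 2 residual and 5.73 prior degrees of freedom. An exact permutation test of 2 against 2 arrays cannot go below p = 0.333 and was not used. The fit was tested on simulated data.

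All 10 members are named, of the other pathway lists the genes that passed, 3 further BCL2 family genes that did not, and marker genes that show what was detected. Members and lists were chosen with earlier results of these data known. The alternatives were other background corrections, normalizations, detection filters, probe rules and tests, the 1.4-fold threshold alone, a replicate block, and leaving out each array. Promoter sequences are from RefSeq, GRCh38.p14.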

Additional observations from a re-analysis of the deposited data

How the results depend on the processing

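Of the members, 2 were called higher and 0 lower. The count of higher members was 1 with no detection filter, 1 for genes detected on all 4 arrays (which leaves BCL2L11 out), 1 with the methods' t-test unadjusted and 0 after Benjamini-Hochberg, and 0 to 2 when 1 array was left out (0 without siPATZ1 2). The count of lower members was 1 with no background correction, an offset of 50, the methods' t-test unadjusted, or trend and robust empirical Bayes (MCL1 each time), 1 with a detection threshold of 0.05 (BIK), 1 by 1.4-fold alone (BAK1), and 0 to 1 when 1 array was left out (BIK without siCTRL 1). The cause was not tested. Where BIK was called lower, it was kept only through siCTRL arrays, where it was high. Over all genes, 732 were higher and 655 lower (52.8% higher). The counts were 1338 and 382 with median scaling (77.8% higher), which shifts the median of all genes to 0.12, and 1130 higher with the deposited scaled intensities (63.8% higher). They were 190 and 147 with no detection filter, which tests 20045 genes, and 1 and 0 with the methods' t-test after Benjamini-Hochberg. Leaving out 1 array gave 109 to 992 higher and 84 to 919 lower genes, and 1.4-fold alone gave 815 and 700. HRK kept its sign under every alternative, all of which reuse the same arrays. BCL2L11 did so too where it was tested. Its probe was kept only through the siPATZ1 arrays, where it was high, so no conclusion is drawn from its sign.

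The labels do not say whether arrays with the same replicate number are paired. Over all genes, the deviations of arrays with the same number had a correlation of -0.05. That shows no shared replicate effect but cannot tell whether the arrays were paired. With the replicate number as a block, 2 members were higher (HRK with adjusted p = 0.0122, BCL2L11 with 0.0409 in limma) and 0 lower, and 582 genes were higher and 487 lower. Among the members, signal over background limits BCL2, BIK and BCL2L11, whose signals lay at or near the lowest detected signal, of 133.3 to 146.6 over the 4 arrays. CYCS of the other lists lay near it too on the siPATZ1 arrays.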
